A study of Mus musculus with 32 samples.

Results

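Fmr1, its 2 paralogs Fxr1 and Fxr2, and 3 genes for proteins that bind FMRP (Cyfip1, Cyfip2 and Nufip1) were described across blood and cerebellum of 2 mouse models. A gene was represented by the probe set whose only gene symbol was that gene, and by the probe set with the highest mean log2 intensity where there were several. Of the 6 genes, 5 had such a probe set, 1 each, among the 19938 genes and 35556 probe sets of the array. Cyfip1 was not analysed here.

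The Fmr1 experiment compared 5 Fmr1-KO mice, in which Fmr1 is knocked out, with 5 WT littermates, all on a congenic C57BL/6 background. The Tsc2 experiment compared 3 Tsc2+/- mice, heterozygous for a loss of the tuberin gene, with 3 WT littermates, all on a mixed 129/SvJae-C57BL/6J background. Mice were 8 to 10 weeks old, and whole blood and cerebellum of each of the 16 mice were hybridised to an Affymetrix Mouse Gene ST array, giving 32 arrays. The labels call the mice female and the study's methods call them male. Fmr1 is X-linked. Xist, which marks female cells, ranged from 17.3 to 106 over the 32 arrays, while the Y-linked Eif2s3y ranged from 226 to 875. Values are linear intensities, fitted on the log2 scale with limma, and a difference was called at a Benjamini-Hochberg adjusted p under 0.05 over all probe sets. Both tissues are mixtures, so fewer cells of a type and less RNA per cell cannot be told apart.

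FMRP, the product of Fmr1, binds messenger RNAs and represses their translation, in neurons largely near synapses. FXR1P and FXR2P share its KH and RGG RNA-binding domains and can form complexes with it. Loss of FMRP causes fragile X syndrome, so a higher level of either paralog in knockout tissue has long been considered as a possible substitute. CYFIP2 belongs to the WAVE regulatory complex that controls branched actin downstream of Rac1, and NUFIP1 is a nuclear RNA-binding protein that also takes part in the assembly of box C/D small nucleolar ribonucleoproteins.

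The 250 bases before the start of Fmr1 and of each paralog are shown because the 3 genes are compared throughout. They were taken from RefSeq on GRCm38.p6, all on the + strand, at chrX:68678291-68678540 for Fmr1, chr3:34019829-34020078 for Fxr1 and chr11:69632721-69632970 for Fxr2. Capitals mark the E-box CACGTG and the GC box GGGCGG, each searched on both strands (CCGCCC is the GC box on the other strand).
Fmr1: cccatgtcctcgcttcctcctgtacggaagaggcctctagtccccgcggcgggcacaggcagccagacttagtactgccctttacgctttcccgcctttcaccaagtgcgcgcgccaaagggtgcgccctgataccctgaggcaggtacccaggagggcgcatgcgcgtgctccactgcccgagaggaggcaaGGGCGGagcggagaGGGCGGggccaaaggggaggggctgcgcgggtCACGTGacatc
Fxr1: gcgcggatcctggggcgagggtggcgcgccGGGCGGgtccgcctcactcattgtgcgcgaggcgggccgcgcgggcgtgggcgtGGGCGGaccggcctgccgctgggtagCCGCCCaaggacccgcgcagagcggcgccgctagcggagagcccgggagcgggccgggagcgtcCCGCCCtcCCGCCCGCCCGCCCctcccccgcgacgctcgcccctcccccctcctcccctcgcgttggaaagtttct
Fxr2: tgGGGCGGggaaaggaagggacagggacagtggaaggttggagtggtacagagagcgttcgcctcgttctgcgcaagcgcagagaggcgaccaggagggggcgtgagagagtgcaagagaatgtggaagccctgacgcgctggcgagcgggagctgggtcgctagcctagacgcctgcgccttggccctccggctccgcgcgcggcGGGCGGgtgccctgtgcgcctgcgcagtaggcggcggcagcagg
The Fmr1 window held 1 E-box, and those of the other 4 measured genes held none. GC boxes numbered 7 before Fxr1, overlapping copies included, 2 each before Fmr1 and Fxr2, and 0 before Cyfip2 and Nufip1. Of 27025 windows of this length, 6.05% held an E-box and 32.9% a GC box. CpG dinucleotides numbered 21 before Fmr1, 40 before Fxr1 and 26 before Fxr2. A match of letters is a description and not a measured binding site.

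The cerebellum array of Fmr1-KO mouse 1 stood apart. Its log2 values had a correlation of 0.882 with the mean of the other arrays of its group, against 0.947 to 0.958 for those 4 arrays. It carried the lowest value of its group for Fmr1, Fxr1, Fxr2 and Nufip1 and the highest for Cyfip2. The cerebellum array of WT mouse 1, with a correlation of 0.940 against 0.958 to 0.967, was lowest in its group for Fxr1 and Fxr2 and highest for Cyfip2. The cerebellar differences of the 5 genes and Tsc2 between Fmr1-KO and WT mice are therefore given with and without the array of Fmr1-KO mouse 1. The median intensity of that array was 257, against 198 to 233 for the other 4 arrays of its group. The share of its probe sets under 16 was 2.87%, against 3.37% to 4.35%. Summed over its 2 markers, the platelet signal of that array was 364, while the highest sum in WT cerebellum was 145. Its T cell and neutrophil sums of 139 and 278 also lay above the WT cerebellum ranges. Its erythroid and B cell signals of 268 and 25.9 lay within them. Its summed granule cell signal was 10445, the highest of its group, and its summed Purkinje cell signal of 9744 was the lowest. The part of these values in the members' results was not tested.

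**Figure D1:**
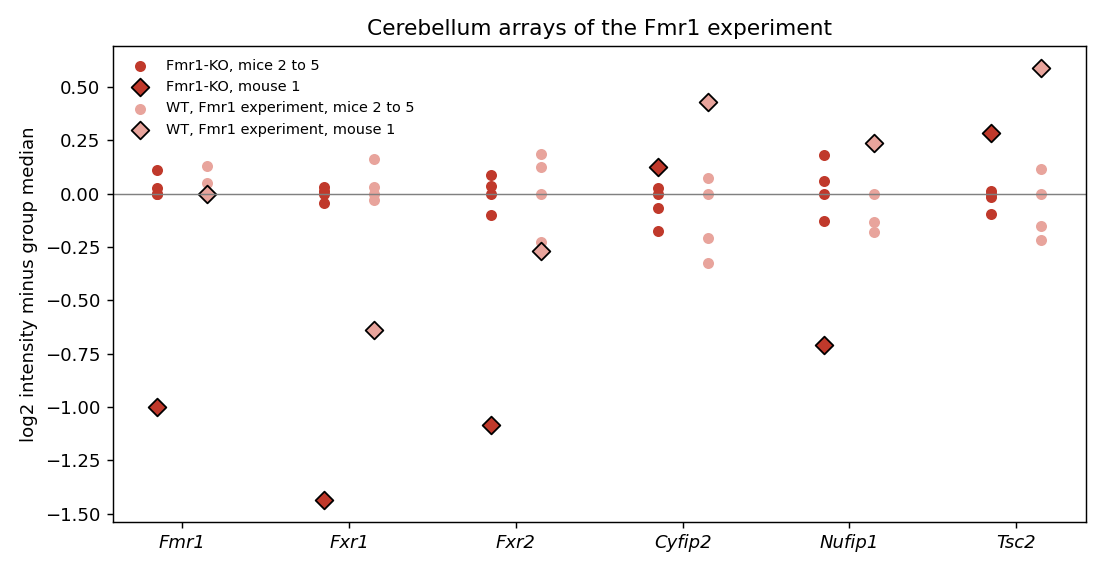
Cerebellum arrays of the Fmr1 experiment, with the log2 intensity of each gene minus the median of its genotype group on the vertical axis; circles are mice 2 to 5, diamonds are mouse 1, and Fmr1-KO stands left of WT. The diamond of Fmr1-KO mouse 1 lies lowest for Fmr1, Fxr1, Fxr2 and Nufip1 and highest for Cyfip2 and Tsc2.

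Fmr1 signal was lower in Fmr1-KO mice in both tissues. In blood, Fmr1 intensities were 169, 263, 237, 256 and 183 in Fmr1-KO mice 1 to 5, against 636, 587, 660, 528 and 335 in WT mice 1 to 5. The highest knockout value lay under the lowest WT value, that of WT mouse 5. The ranges of 0.562% of all probe sets did not overlap in blood, and the log2 difference of Fmr1 was -1.29 (standard error 0.22, 95% interval -1.78 to -0.81, exact permutation p = 0.00794, the smallest that 5 against 5 can give). Over all probe sets the limma adjusted p was 0.92, and 6 probe sets had a smaller p, so Fmr1 was not called in blood alone, where 0.00844% of probe sets were.

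In cerebellum, Fmr1 intensities were 142, 306, 283, 290 and 284 in Fmr1-KO mice, against 837, 868, 917, 832 and 833 in WT mice. The WT values were close together, with a standard deviation of 0.06 on the log2 scale, and the groups did not overlap, as was so for 0.357% of all probe sets. The log2 difference was -1.77 (standard error 0.20, 95% interval -2.21 to -1.32, exact permutation p = 0.00794), the probe set with the smallest limma p, with an adjusted p of 0.15. Without the array of Fmr1-KO mouse 1 the difference was -1.56 with a standard error of 0.07, and the adjusted p was 0.000162, a call. No probe set was called in cerebellum with all arrays (0%), and 70 had an unadjusted p under 0.01.

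Fitted over both tissues, Fmr1 fell in Fmr1-KO mice, to 0.346 of the WT level (95% interval 0.276 to 0.435), and it was the 1 probe set called (0.00281%). Knockout signal thus remained at 0.408 of WT in blood and at 0.294 of WT in cerebellum. The probe set's position relative to the part removed in the knockout is not given in the sources used here, so this remaining signal cannot be assigned to transcript or to background. The difference between the tissues in the effect of genotype on Fmr1 was -0.47 (95% interval -1.11 to 0.16, limma adjusted p = 0.99). Without the array of Fmr1-KO mouse 1 it was -0.27. This interaction was called for 0.00844% of probe sets, and the same interaction in the Tsc2 experiment for 0.00562%, none of them a member.

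Fxr1, the paralog most studied in muscle and heart, was not called in Fmr1-KO mice in either tissue. In blood, Fxr1 intensities were 516, 569, 612, 658 and 535 in Fmr1-KO mice, against 556, 523, 616, 559 and 328 in WT mice. The ranges overlapped, and WT mouse 5, also the lowest of its group for Fmr1, held the lowest value. With a log2 difference of 0.19 (95% interval -0.20 to 0.58, exact permutation p = 0.34), Fxr1 stood at 1.14 times the WT level. Without WT mouse 5 the difference was 0.03.

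In cerebellum, Fxr1 intensities were 513, 1422, 1402, 1389 and 1350 in Fmr1-KO mice, against 868, 1384, 1516, 1353 and 1324 in WT mice. Mouse 1 held the lowest value of either genotype, and mice 2 to 5 of the genotypes overlapped within 1324 to 1516. Fxr1 differed by -0.15 (95% interval -0.80 to 0.50, exact permutation p = 0.71). Its sign turned without the array of Fmr1-KO mouse 1, at 0.13 with a standard error of 0.15, and without the arrays of both mice 1 the difference was -0.002 with a standard error of 0.07. Over both tissues Fxr1 stood at 1.01 times WT, with a 95% interval of 0.781 to 1.31.

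Fxr2, the other autosomal paralog, was not higher on average in Fmr1-KO mice in either tissue. In blood, Fxr2 intensities were 256, 291, 249, 426 and 280 in Fmr1-KO mice, against 474, 419, 430, 321 and 283 in WT mice. Of the knockout mice, 4 lay between 249 and 291 and mouse 4 lay at 426, inside the WT range. The log2 difference was -0.36 (95% interval -0.80 to 0.08, exact permutation p = 0.095, limma adjusted p = 0.96), and it was -0.49 without Fmr1-KO mouse 4. As a fold this interval ran from 0.573 to 1.06.

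In cerebellum, Fxr2 intensities were 801, 1742, 1811, 1702 and 1588 in Fmr1-KO mice, against 1326, 1819, 1366, 1745 and 1599 in WT mice. Apart from mouse 1, the knockout arrays lay within the WT range. Fxr2 differed by -0.09 (95% interval -0.58 to 0.41, exact permutation p = 0.83), and 0.13 with a standard error of 0.12 without the array of Fmr1-KO mouse 1. The effect of genotype on Fxr2 in cerebellum less the effect in blood was 0.28 (95% interval -0.37 to 0.92), and 0.49 with a standard error of 0.24 without that array (limma adjusted p = 1.00).

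On the question whether the paralogs make up for lost Fmr1 at the RNA level, neither was called higher in any comparison of the genotypes. Over both tissues the upper ends of the 95% intervals were 1.31-fold for Fxr1 and 1.07-fold for Fxr2. Within cerebellum they were 1.41-fold for Fxr1 and 1.33-fold for Fxr2, and within blood 1.496-fold and 1.06-fold. The ends over both tissues therefore do not bound a rise within a tissue. Without the cerebellum array of Fmr1-KO mouse 1, the log2 differences over both tissues were 0.16 for Fxr1 (standard error 0.12) and -0.13 for Fxr2 (standard error 0.13). Protein was not measured.

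**Figure D2:**
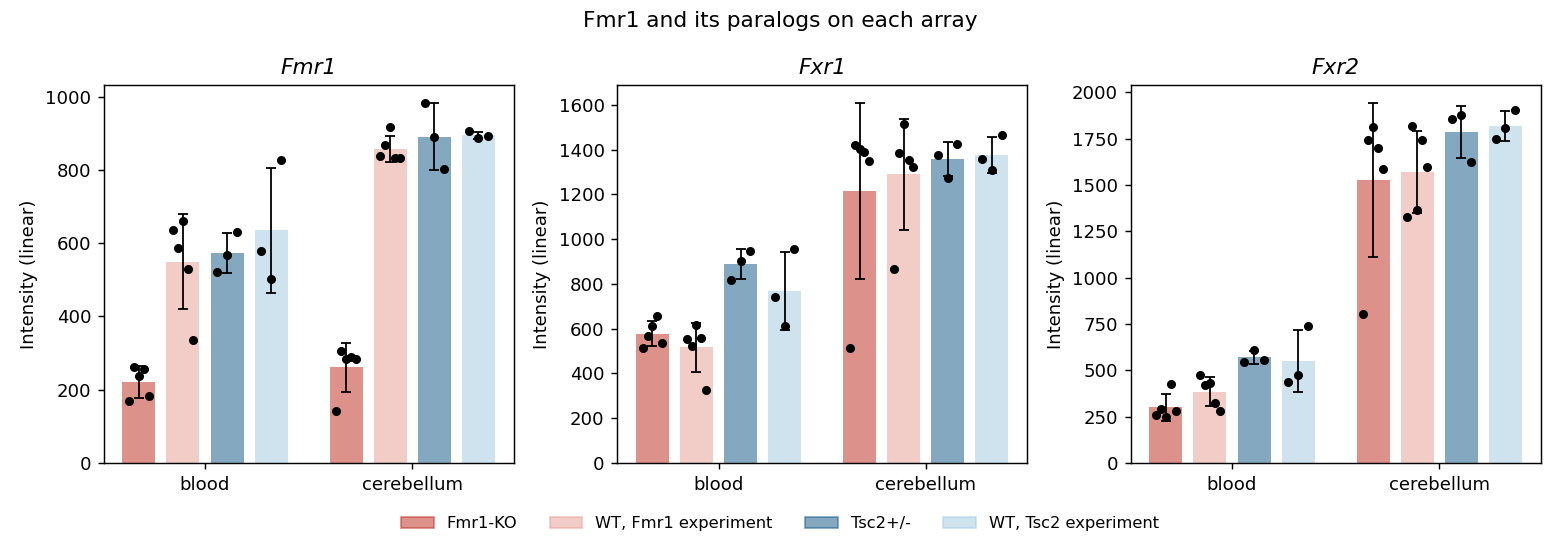
Linear intensity of Fmr1, Fxr1 and Fxr2 in blood and cerebellum; points are single mice, bars are group means with the standard deviation, and each mutant group stands left of its WT group (n = 5 each in the Fmr1 experiment, 3 each in the Tsc2 experiment). Fmr1-KO points lie under all WT points for Fmr1 in both tissues, while the genotypes overlap for Fxr1 and Fxr2.

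**Figure D3:**
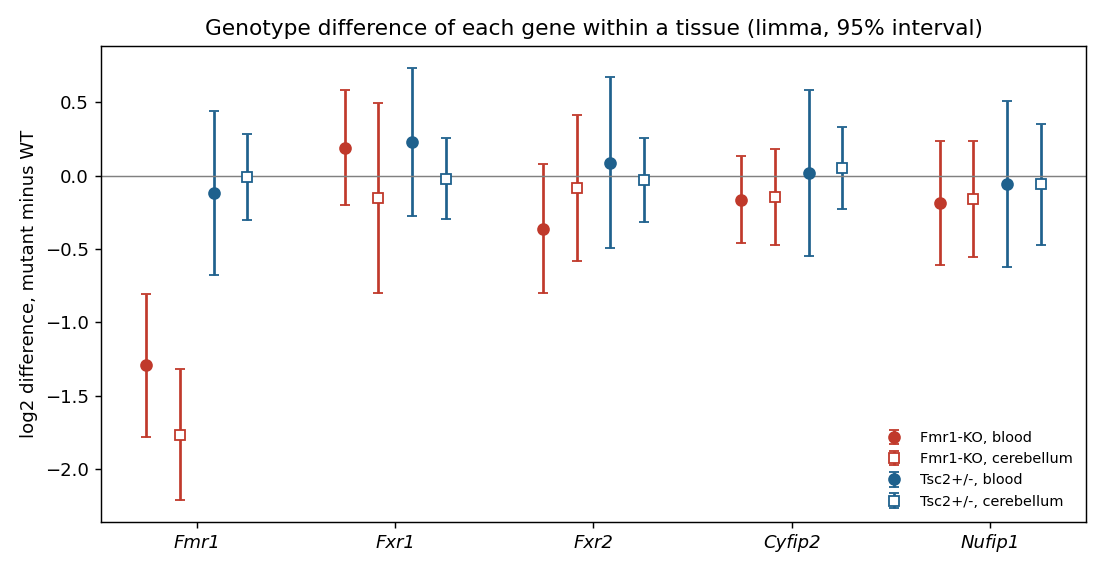
log2 difference between mutant and WT mice for the 5 genes within each tissue, with 95% intervals from limma; filled circles are blood and open squares cerebellum. Among these 20 intervals, those of Fmr1 in Fmr1-KO mice are the 2 that lie wholly under 0.

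Neither FMRP partner was called in Fmr1-KO mice. In blood, Cyfip2 intensities were 1524, 1523, 1346, 1855 and 1154 in Fmr1-KO mice, against 1814, 1686, 1483, 1582 and 1648 in WT mice. The knockout values spread to both sides of the WT range. Cyfip2 differed by -0.16 on the log2 scale (95% interval -0.46 to 0.13, exact permutation p = 0.22). In cerebellum, Cyfip2 intensities were 3891, 3573, 3641, 3411 and 3164 in Fmr1-KO mice, against 5279, 4123, 3129, 3914 and 3390 in WT mice, with the highest value in WT mouse 1. There the difference was -0.15 (95% interval -0.47 to 0.18, exact permutation p = 0.39), and -0.18 without the array of Fmr1-KO mouse 1.

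In blood, Nufip1 intensities were 301, 321, 343, 449 and 241 in Fmr1-KO mice, against 444, 312, 460, 332 and 327 in WT mice. The groups overlapped, and mouse 4 was again the highest knockout, as it was for Fxr1, Fxr2 and Cyfip2. Nufip1 differed by -0.19 (95% interval -0.61 to 0.23, exact permutation p = 0.37). In cerebellum, Nufip1 intensities were 318, 590, 521, 543 and 476 in Fmr1-KO mice, against 617, 522, 476, 461 and 619 in WT mice. Mouse 1 was the lowest knockout, and the other 4 lay inside the WT range. This gave a difference of -0.16 (95% interval -0.55 to 0.24, exact permutation p = 0.43), and -0.01 without that array. Over both tissues the intervals ran from -0.35 to 0.04 for Cyfip2 and from -0.44 to 0.09 for Nufip1.

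In blood, the summed signal of the 2 T cell markers was 3543 to 5257 in Fmr1-KO mice, against 5011 to 5984 in WT mice. The corresponding sums of the 2 erythroid markers with a probe set were 31657 to 33944 in Fmr1-KO mice and 29572 to 33539 in WT mice, and those of the 2 platelet markers were 22002 to 24105 in Fmr1-KO mice and 23295 to 25852 in WT mice. These summed ranges overlapped. Those of the single T cell marker Cd3e did not, at 1973 to 2827 in Fmr1-KO mice against 2832 to 3440 in WT mice (log2 difference -0.23, limma adjusted p = 0.96). The same was so for 0.562% of all probe sets. The other T cell marker, Cd3g, overlapped, at 1570 to 2429 in Fmr1-KO mice against 2175 to 2797 in WT mice. The part of these markers in the blood values of the members was not tested.

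**Figure D4:**
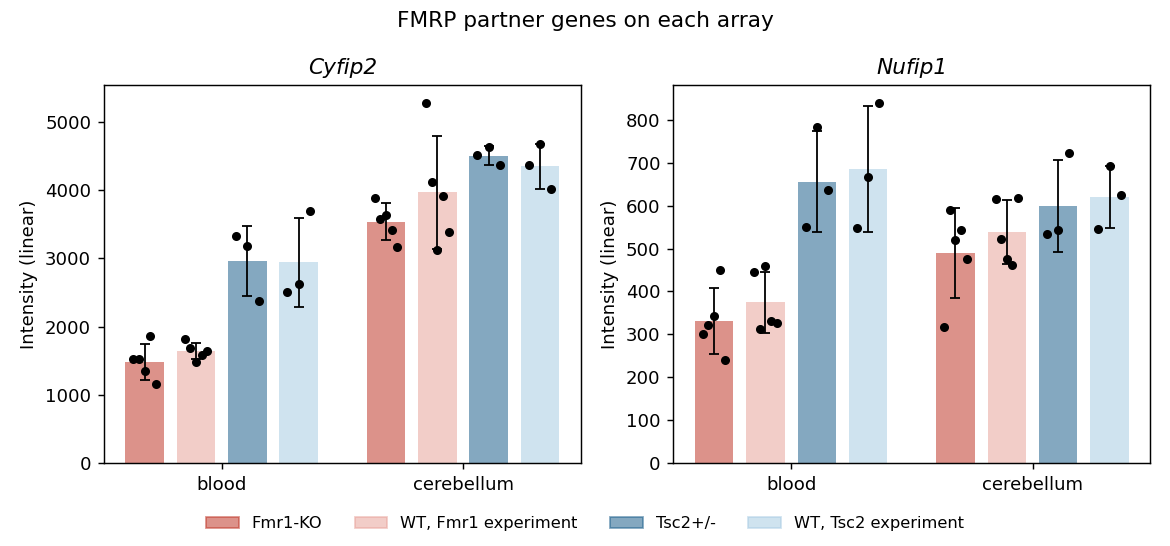
Linear intensity of Cyfip2 and Nufip1 in blood and cerebellum; points are single mice, bars are group means with the standard deviation, and each mutant group stands left of its WT group. In blood, both genes have higher points in the Tsc2 experiment than in the Fmr1 experiment, in mutant and WT mice alike.

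The targeted gene Tsc2 was 660, 621 and 890 in Tsc2+/- blood, against 740, 731 and 1008 in WT blood, and the groups overlapped (log2 difference -0.19, 95% interval -0.74 to 0.35). In cerebellum, Tsc2 was 713, 754 and 1000 in Tsc2+/- mice, against 1125, 1176 and 1110 in WT mice (log2 difference -0.48, 95% interval -0.87 to -0.10, limma adjusted p = 0.93). These ranges did not overlap, as was so for 10.3% of all probe sets. In blood, WT mouse 3 held the highest WT value of all 5 genes and of Tsc2. Its summed platelet signal was 1247, against 21990 and 15948 in WT mice 1 and 2, and its summed T cell signal was 16903, against 9651 and 10696. In Tsc2+/- blood the platelet sums were 15027, 1803 and 18126 in mice 1 to 3, and the T cell sums were 10481, 8172 and 7232. Without WT mouse 3 the Tsc2 difference in blood was -0.04, and the part of these markers in the blood values was not tested.

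In the Tsc2 experiment no member was called (background 0% over both tissues, 0% in blood and 0.0253% in cerebellum), and 3 mice against 3 cannot give an exact p below 0.1. Fmr1 intensities in blood were 522, 568 and 632 in Tsc2+/- mice, against 578, 502 and 827 in WT mice. In cerebellum they were 983, 890 and 802 in Tsc2+/- mice, against 905, 886 and 892 in WT mice. The groups overlapped in both tissues, where the ranges of 6.38% of probe sets in blood and 10.3% in cerebellum did not, and over both the Fmr1 difference was -0.06 (95% interval -0.33 to 0.21). In blood the Fmr1 difference of -0.12 turned to 0.09 without WT mouse 3.

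Fxr1 intensities in blood were 817, 903 and 946 in Tsc2+/- mice, against 742, 610 and 954 in WT mice. The highest value was in a WT mouse, and the log2 difference of 0.23 had a 95% interval of -0.28 to 0.74. Without WT mouse 3 it was 0.40 (standard error 0.16, limma adjusted p = 0.73). In cerebellum, Fxr1 intensities were 1374, 1275 and 1423 in Tsc2+/- mice, against 1359, 1307 and 1465 in WT mice (log2 difference -0.02, 95% interval -0.30 to 0.26). Fxr2 intensities in blood were 545, 607 and 556 in Tsc2+/- mice, against 436, 473 and 739 in WT mice. Fxr2 spread more among WT mice, and its log2 difference was 0.09 (95% interval -0.49 to 0.67), and 0.32 (standard error 0.14) without WT mouse 3. In cerebellum the Fxr2 difference was -0.03 (95% interval -0.32 to 0.26).

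Cyfip2 in blood was 3331, 3174 and 2377 in Tsc2+/- mice, against 2514, 2623 and 3690 in WT mice. Nufip1 in blood was 549, 783 and 636 in Tsc2+/- mice, against 548, 668 and 840 in WT mice. Without WT mouse 3 the blood differences were 0.19 for Cyfip2 and 0.10 for Nufip1, against 0.02 and -0.06 with all mice. Both overlapped between the genotypes, as they did in cerebellum, where Cyfip2 was 4363 to 4636 in Tsc2+/- mice against 4013 to 4672 in WT mice and Nufip1 was 534 to 723 in Tsc2+/- mice against 547 to 692 in WT mice. Over both tissues the differences were 0.03 for Cyfip2 (95% interval -0.23 to 0.30) and -0.06 for Nufip1 (95% interval -0.36 to 0.25).

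Set directly against each other, the models differed in their effect on Fmr1 by -1.18 in blood (95% interval -1.90 to -0.45, limma adjusted p = 1.00) and by -1.76 in cerebellum (95% interval -2.36 to -1.15, limma adjusted p = 0.18). Neither was called, while 0.00281% of probe sets in blood and 0.00844% in cerebellum were. Without the cerebellum array of Fmr1-KO mouse 1 the cerebellar value was -1.55 with an adjusted p of 8.91e-05, a call. For the other 4 genes the corresponding differences in blood lay between -0.45 (Fxr2, 95% interval -1.13 to 0.23) and -0.04 (Fxr1). In cerebellum they lay between -0.20 (Cyfip2) and -0.06 (Fxr2), and between -0.23 and 0.16 without that array.

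Tsc2 was also read in the Fmr1 experiment. In blood, Tsc2 intensities were 572, 544, 567, 634 and 534 in Fmr1-KO mice, against 679, 693, 689, 637 and 613 in WT mice. The ranges overlapped through Fmr1-KO mouse 4 and WT mouse 5, and the log2 difference was -0.22 (95% interval -0.41 to -0.03, exact permutation p = 0.0159, limma adjusted p = 0.96). In cerebellum the Tsc2 difference was -0.004 (95% interval -0.36 to 0.35). The array of Fmr1-KO mouse 1 held the highest Tsc2 value of its group there, at 1195, and without it the difference was -0.07 (standard error 0.16).

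All 5 genes were brighter in cerebellum than in blood of WT mice of the Fmr1 experiment. The largest log2 difference was that of Fxr2, at 2.04 (standard error 0.17, limma adjusted p = 3.66e-06), and Fxr2 intensities were 1326 to 1819 in cerebellum, against 283 to 474 in blood. Fxr1 differed by 1.33 (adjusted p = 0.000326) and Cyfip2 by 1.25 (adjusted p = 4.22e-05), with WT ranges of 868 to 1516 in cerebellum against 328 to 616 in blood and of 3129 to 5279 in cerebellum against 1483 to 1814 in blood. Fmr1 differed by 0.68 (adjusted p = 0.00783) and Nufip1 by 0.53 (adjusted p = 0.0132). All 5 were called, as were 61.1% of all probe sets, and 42.1% of all probe sets were called higher in cerebellum.

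The median probe set was 0.42 higher in cerebellum on this scale. With arrays centred on their medians, the differences of Fmr1 and Nufip1 were 0.19 (limma adjusted p = 0.40) and 0.04 (adjusted p = 0.84) and were not called, while those of Fxr2, Fxr1 and Cyfip2 were 1.55, 0.84 and 0.76 and were. Leaving out WT mouse 2 or WT mouse 5 also ended the call of Nufip1 (adjusted p = 0.059 and 0.066).

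In WT mice of the Tsc2 experiment, where the median of all probe sets was 0.05, Fxr2 (1.77, limma adjusted p = 0.00199) and Fxr1 (0.86, adjusted p = 0.0197) were called higher in cerebellum, as were 22.6% of probe sets, with 37.8% called in either direction. The differences were 0.58 for Cyfip2 (95% interval 0.09 to 1.08, adjusted p = 0.069), 0.53 for Fmr1 (95% interval -0.02 to 1.07) and -0.13 for Nufip1 (95% interval -0.65 to 0.40). The call of Fxr1 was lost without WT mouse 1 or without WT mouse 2 (adjusted p = 0.12 and 0.18), and Cyfip2 was called without WT mouse 3 (0.81, adjusted p = 0.035). Whether the tissue difference itself differed between the experiments was not tested. In Fmr1-KO mice, mean Fmr1 intensity was 261 in cerebellum and 221 in blood, and mouse 1 was lower in cerebellum, at 142, than in blood, at 169.

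Between the WT mice of the 2 experiments, strain and experiment cannot be told apart. Cyfip2 in blood was 2514, 2623 and 3690 in WT mice of the Tsc2 experiment, against 1814, 1686, 1483, 1582 and 1648 in WT mice of the Fmr1 experiment. Nufip1 in blood was 548, 668 and 840 in WT mice of the Tsc2 experiment, against 444, 312, 460, 332 and 327 in WT mice of the Fmr1 experiment. For both genes the ranges did not overlap, as was so for 24.0% of all probe sets (18.3% with the Tsc2 experiment higher).

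The log2 difference was 0.82 for Cyfip2 (95% interval 0.44 to 1.20, exact permutation p = 0.0179, limma adjusted p = 0.068) and 0.87 for Nufip1 (95% interval 0.38 to 1.36, exact permutation p = 0.0179, limma adjusted p = 0.069), beside a median of 0.22 over all probe sets. Neither was called, and 0.132% of probe sets were. Without WT mouse 1 of the Tsc2 experiment Cyfip2 was called (0.92, adjusted p = 0.047). Fxr1 differed by 0.58 (95% interval 0.00 to 1.16), Fxr2 by 0.50 (95% interval -0.08 to 1.08) and Fmr1 by 0.22 (95% interval -0.42 to 0.85).

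Levels of blood cell markers in the same WT mice are given beside these values. The summed T cell markers (2 of 2 genes measured) were 9651 to 16903 in WT mice of the Tsc2 experiment, against 5011 to 5984 in WT mice of the Fmr1 experiment, and the B cell marker Cd79a (1 of 2 genes measured) was 5003 to 5542 in the Tsc2 experiment against 3318 to 4689 in the Fmr1 experiment. The summed erythroid markers were lower in the Tsc2 experiment, at 22446 to 28097 against 29572 to 33539 in the Fmr1 experiment. That difference lay in Slc4a1, at 6251 to 9714 in the Tsc2 experiment against 12067 to 15906 in the Fmr1 experiment. The other erythroid marker, Alas2, overlapped, at 16194.5 to 18779 in the Tsc2 experiment against 17437 to 18817 in the Fmr1 experiment. The platelet markers were 1247 to 21990 in the Tsc2 experiment against 23295 to 25852 in the Fmr1 experiment. The summed neutrophil markers were 711 to 2178 in the Tsc2 experiment against 1921 to 6619 in the Fmr1 experiment. The lowest platelet sum and the highest T cell sum were those of WT mouse 3 of the Tsc2 experiment, which also held the highest Cyfip2 and Nufip1. Without that mouse the differences were 0.65 for Cyfip2 (limma adjusted p = 0.15) and 0.71 for Nufip1 (adjusted p = 0.18). No marker was at 0, and their part in the difference between the strains was not tested. In cerebellum the same comparison gave 0.06 to 0.22 for the 5 genes, and none was called (background 0.00562%) or had ranges that did not overlap (4.98% of probe sets).

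The spread of Fmr1 among WT cerebella was small. Its standard deviation on the log2 scale was 0.02 among WT mice of the Tsc2 experiment and 0.06 among those of the Fmr1 experiment, against medians over all probe sets of 0.23 in each. In WT blood it was 0.37 in the Tsc2 experiment and 0.40 in the Fmr1 experiment, with medians over all probe sets of 0.30 in the Tsc2 experiment and 0.34 in the Fmr1 experiment. Cyfip2 was the least variable of the 5 genes in WT blood of the Fmr1 experiment, at 0.11.

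To describe how the genes varied together, log2 values were centred on the mean of each tissue in each experiment. Over the 32 arrays, Pearson's r between Fxr1 and Fxr2 was 0.68, and 0.47 over 31 arrays without the cerebellum array of Fmr1-KO mouse 1. Between Fmr1 and Fxr1 it was 0.33 with that array and 0.01 without it, and between Fmr1 and Fxr2 it was 0.55 and 0.39. Fxr2 and Nufip1 had an r of 0.67 with that array and 0.55 without it, so a shared pattern was not particular to the paralogs. Fxr1 and Cyfip2 had an r of -0.21. These arrays share mice, genotypes and normalization, so the coefficients are a description.

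Among 16444 gene-named probe sets, those most like Fxr1 were Dnaja2, which encodes a co-chaperone of Hsp70 (r = 0.96), Morf4l1 (0.93) and Btbd10 (0.92). Without the one array these were 0.92, 0.85 and 0.85. Fxr2 was most like Pdpr (0.90), Pip5k1c (0.90) and Eif3a (0.90), and Cyfip2 was most like the chromatin remodelling genes Arid1b (0.93) and Arid1a (0.90) and Git2 (0.89). Nufip1 was most like Pno1, a ribosome assembly factor (0.93), Zfp944 (0.91) and Mkln1 (0.91). For Fmr1, whose pattern follows the knockout, the highest values were lower, at 0.72 for Jade2, 0.68 for Ctr9 and 0.67 for Zyg11b.

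Of the WAVE regulatory complex and Rac1, in which CYFIP2 sits, 3 of 10 genes were higher and 7 lower in Fmr1-KO mice over both tissues, with a median difference of -0.07 beside -0.03 over all probe sets, and none was called. Nckap1, a subunit that binds CYFIP directly, differed by -0.24 (95% interval -0.47 to -0.003, limma adjusted p = 0.98) and Wasf1 by -0.70 (95% interval -1.57 to 0.18). Of 10 genes for box C/D snoRNP assembly, the process that NUFIP1 takes part in, 1 was higher and 9 lower, with a median of -0.10 and none called. Without the cerebellum array of Fmr1-KO mouse 1, 2 were higher and 8 lower, with a median of -0.09 beside -0.04 over all probe sets. In cerebellum alone, 4 of these genes were higher and 6 lower with that array, and 9 higher and 1 lower without it, none called. Znhit6 differed by -0.50 (95% interval -1.04 to 0.05) and Rpap3 by -1.84, with an interval of -4.58 to 0.90.

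Of 22 genes for FMRP-associated proteins, 3 were higher and 19 lower in Fmr1-KO mice (median -0.05), and of 17 of 18 listed FMRP target mRNAs, 6 were higher and 11 lower (median -0.11). The median over all probe sets was -0.03, and -0.04 without the cerebellum array of Fmr1-KO mouse 1. Without that array the lists had medians of -0.03 (5 higher, 17 lower) and -0.08 (5 higher, 12 lower). In cerebellum alone, the FMRP-associated genes were 3 higher and 19 lower with it, and 8 higher and 14 lower without it. None was called in either list. Kif3c, a kinesin motor, was 105 to 129 in Fmr1-KO blood, against 141 to 270 in WT blood, a log2 difference of -0.76 (95% interval -1.18 to -0.35, limma adjusted p = 0.96), and -0.04 in cerebellum, or 0.02 without the array of Fmr1-KO mouse 1. Its blood ranges did not overlap, as was so for 0.562% of all probe sets. Arc, the activity-regulated synaptic gene, was 34.3 to 68.6 in Fmr1-KO blood, against 64.6 to 183 in WT blood (-1.05, 95% interval -1.72 to -0.39, limma adjusted p = 0.96), and its cerebellar difference was -0.01, or -0.08 without that array. Dicer1, the microRNA-processing nuclease, and Dlg4, a postsynaptic scaffold gene, differed over both tissues by -0.19 and -0.23.

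Of 7 genes near Fmr1 on the X chromosome, 2 were higher and 5 lower in Fmr1-KO mice (median -0.08, none called), led by Mtm1 at -0.32 and Fmr1nb at 0.26. In Tsc2+/- mice over both tissues the medians of the 5 lists were -0.12 for the WAVE complex, -0.04 for snoRNP assembly, -0.03 for FMRP-associated proteins, -0.03 for FMRP targets and 0.12 for the X-linked genes, beside 0.02 over all probe sets. No gene of these lists was called there. The smallest p in each list belonged to Rac1 (-0.13), Pih1d1 (0.28), Tdrd3 (-0.19), App (0.60) and Mamld1 (0.55), followed by Nckap1l (0.14), Nop58 (-0.17), Kif3c (-0.25), Dlg4 (-0.29) and Ids (0.10). The X-linked genes were higher in all 7 cases in Tsc2+/- blood (median 0.35, beside 0.04 over all probe sets) and lower in all 7 in Tsc2+/- cerebellum (median -0.10, beside -0.02 over all probe sets), with none called in either tissue. Their blood signal was the dimmer. In WT mice of that experiment their median log2 difference, cerebellum minus blood, was 4.10, beside 0.05 over all probe sets. Without WT mouse 3 the median in blood was 0.44, beside 0.11 over all probe sets. That array also moved other lists in blood, where the 10 snoRNP assembly genes were 4 higher and 6 lower with it and 10 higher without it, none called.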

How the data were processed

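The authors quantile normalized the probes of all arrays and summarised each probe set with the PLIER model in Affymetrix Power Tools, and the deposited values are intensities on a linear scale. The genome build of the array's annotation is not given in the sources used here. The platform annotation gave 1 gene symbol for 21789 of 35556 probe sets. Samples were grouped by the deposited labels.

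Differences are between mean log2 intensities, taken without an added constant. Models were fitted with limma 3.58.1 (lmFit, eBayes) under R 4.3.3, using tissue and genotype over both tissues without a mouse term, and genotype alone within a tissue. Interaction terms tested whether genotype effects differed between tissues or models. Exact permutation tests (two-sided, 12 in each pair of groups, both tissues and Tsc2 included) compared single genes, and their p-values are not adjusted for that number. Within a tissue each mouse is 1 replicate, while the fits over both tissues count the 2 arrays of a mouse as separate values. With the mouse as a random block, Fmr1 was still called in Fmr1-KO mice over both tissues (correlation within a mouse 0.008). The number of arrays limits the precision. The code was tested on simulated data.

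The genes named are the members, Tsc2, for each list and model the 2 genes with the smallest p over both tissues, and the 3 probe sets most like each member. Blood and cerebellum lists of cell type markers were read by their summed level. The lists hold genes of the WAVE complex, of box C/D snoRNP assembly, for FMRP-associated proteins, of FMRP target mRNAs and of the X chromosome near Fmr1. The members and lists were chosen with earlier results of these data known, and probe sets of Eif4e, Snu13 and Ybx1 in them may share signal with near-identical copies. Alternatives were 16 added before the log2, leaving out dim or unnamed probe sets, quantile normalization repeated within tissue, arrays centred on their medians, other variance models, the methods' t-test, all 32 arrays in 1 fit, the mouse or the replicate number as a block, and leaving out mice or arrays. Leaving out the cerebellum arrays of both mice 1, and refitting Tsc2 and the listed genes without the cerebellum array of Fmr1-KO mouse 1 or the blood array of WT mouse 3 of the Tsc2 experiment, were chosen after seeing the data. Replicate numbers are not known to pair the mice of the 2 genotypes. In the Fmr1 experiment the deviations of same-numbered mice had correlations of -0.03 to 0.02 (blood) and of -0.01 to 0.23 (cerebellum, highest for mouse 1). Other pairs there had -0.09 to 0.05 and -0.16 to 0.17. In the Tsc2 experiment same-numbered mice had -0.07 to 0.14 (blood) and -0.09 to 0.16 (cerebellum). Blood and cerebellum of 1 Fmr1-KO mouse gave -0.05 to 0.03, so these correlations cannot decide whether mice were paired. The 2 arrays of a mouse come from 1 animal, and cerebellum minus blood was therefore also fitted with the mouse as a block.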

Additional observations from a re-analysis of the deposited data

Results flagged for a closer look

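Among 24 groups of 5 arrays (Tsc2 included), 5 held an array far from the other 4, with a gap to its neighbour of more than 0.71 of the group's range. Chance flags about 1 group in 20. In Fmr1-KO cerebellum, mouse 1 was far below the rest for Fmr1 (141.9, gap 0.859 of the range), Fxr1 (513.2, gap 0.921) and Fxr2 (801.5, gap 0.779), and far above them for Tsc2 (1195, gap 0.739). In Fmr1-KO blood, mouse 4 was far above the rest for Fxr2 (426.2, gap 0.763). The 4 cerebellar values come from 1 array and are not independent of each other.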

How the results depend on the processing

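Of 1146 values under alternatives, 1046 kept their direction and side of the threshold (counts stayed within 1.5 times), 27 passed the threshold anew, 6 no longer passed, 17 counts moved and 50 differences changed sign. None of those sign changes was in a called difference. Over the alternatives the log2 difference of Fmr1 in Fmr1-KO mice over both tissues was -1.62 to -1.38 and always called. Precision is limited by 5 or 3 mice a group, and with no detection calls in the files dim signal cannot be told apart from background.

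Fmr1 in Fmr1-KO cerebellum was called with 16 added (-1.70), with probe sets of 1 gene symbol, with a trend and robust variances or with all 32 arrays in 1 fit (-1.77 in each), without the array of Fmr1-KO mouse 1 (-1.56) and without both mouse 1 arrays (-1.57), so that the count of members was 1 under each. Fmr1 in blood was called in the fit of all 32 arrays (-1.29, 1 member). Without the array of Fmr1-KO mouse 1 the cerebellar differences were 0.13 for Fxr1 and 0.13 for Fxr2. Without both mouse 1 arrays they were 0.075 for Fxr2 and 0.040 for Nufip1, and Fxr1 between the WT strains was -0.018.

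In Tsc2+/- mice, arrays centred on their medians gave -0.031 for Cyfip2 in blood and 0.017 for Fmr1 and 0.0056 for Fxr1 in cerebellum, and repeated quantile normalization gave 0.023 for Fmr1 in cerebellum. Repeated quantile normalization also gave -0.084 in blood and -0.015 in cerebellum for Fmr1 between the WT strains, and 0.030 for Nufip1 between the tissues of WT mice of the Tsc2 experiment, where it called 4 members. Centring left 3 members called between the tissues in WT mice of the Fmr1 experiment. Between the WT strains in blood, 2 members were called with 16 added, with 1 gene symbol, with a trend and robust variances and with all 32 arrays.

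With single mice left out, in Fmr1-KO mice Fxr1 ran from -0.052 to 0.18 over both tissues, and in cerebellum Fmr1 from -1.84 to -1.56, Fxr1 from -0.29 to 0.13 and Fxr2 from -0.16 to 0.13 (0 to 1 members called). In Tsc2+/- mice over both tissues, Fmr1 ran from -0.14 to 0.038, Fxr2 from -0.058 to 0.16, Cyfip2 from -0.015 to 0.12 and Nufip1 from -0.18 to 0.041. In Tsc2+/- blood, Fmr1 ran from -0.27 to 0.087, Fxr2 from -0.057 to 0.32, Cyfip2 from -0.087 to 0.19 and Nufip1 from -0.21 to 0.10. In Tsc2+/- cerebellum, Fmr1 ran from -0.083 to 0.065, Fxr1 from -0.057 to 0.025, Fxr2 from -0.068 to 0.037, Cyfip2 from -0.0038 to 0.11 and Nufip1 from -0.20 to 0.022, and the Fmr1 effect in cerebellum less that in blood from -0.099 to 0.26. Nufip1 between the tissues of WT mice of the Tsc2 experiment ran from -0.21 to 0.024 (1 to 3 members called), Fxr1 between the WT strains in cerebellum from -0.018 to 0.18, and 0 to 1 members were called between the WT strains in blood. The causes were not tested beyond what each alternative leaves out.

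The replicate number as a block, a number not known to pair the mice of 2 genotypes, left Fmr1 in Fmr1-KO mice called over both tissues (-1.53, limma adjusted p = 0.0016) and gave -0.013 for Fmr1 between the WT strains in blood. With the mouse as a block, all 5 members stayed called between the tissues in WT mice of the Fmr1 experiment. The mean over several probe sets was not run, since each member has 1.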
